A study of Mus musculus with 11 samples.

Results

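The genes described here are 40 genes of protein folding in the endoplasmic reticulum (ER) and of the unfolded protein response (UPR). They were chosen by name and role, not by their values, although earlier results of these data were known. They are the entries of the deposited expression table whose mouse Ensembl identifier carries a listed symbol, 40 of the 21899 genes in the table. By role they were 4 stress sensors, 3 transcription factors, 4 genes of the ATF4 arm, 9 genes of the BiP chaperone system, 5 lectin chaperones and disulfide isomerases, 6 genes of ER-associated degradation (ERAD), and 9 subunits of the translocon and the signal peptidase. RNA-seq was made from airway tissue of wild-type male BALB/c mice in 3 groups. The PBS group (3 libraries) was neither sensitized nor challenged and was given PBS. The OVA/LPS/Vehicle group (4 libraries) was sensitized to ovalbumin (OVA) with alum, challenged with OVA through the nose, exposed to LPS, a bacterial endotoxin, and given vehicle into the trachea. The OVA/LPS/GGsTop group (4 libraries) had the same course with GGsTop, an inhibitor of γ-glutamyl transferase, in place of vehicle. A difference from PBS therefore covers sensitization, OVA, LPS and tracheal dosing together. The library labels name the trachea, while the methods describe dissected airway with the trachea removed, and OVA/LPS/Vehicle libraries carry the labels 12, 34, 56 and 78 without a statement of what each number stands for. Neither source ties a library to a mouse, so p-values measure the spread between libraries, which may be technical.

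Secreted and membrane proteins are threaded into the ER, where chaperones fold them, isomerases join their disulfide bonds, and misfolded chains are passed back to the cytosol for destruction. When unfolded chains build up, the sensors IRE1, PERK and ATF6 signal to the nucleus and the cytosol. IRE1 splices the mRNA of XBP1, PERK slows translation and favours ATF4, and cleaved ATF6 enters the nucleus, after which genes of chaperones and degradation are transcribed. In the airway this machinery is heavily used by mucus-producing goblet cells, which carry their own sensor, IRE1β, encoded by Ern2, and by antibody-secreting plasma cells.

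UPR target genes share short promoter elements, and the elements found in these genes are shown as a description. Because the genes were chosen for their roles in the ER and the UPR, a high share of such elements is not a separate result. RefSeq promoter windows on the build GRCm38.p6, from 250 bases before to 50 bases after the start of transcription, were found for 31 of the 40 genes. The ER stress response element (ERSE), searched as CCAAT followed after 9 bases by CCACG on both strands, was in the windows of 9 of these 31 genes (29.0%) and of 37 of all 27025 genes in the promoter table (0.137%). In these 10 elements the capitals mark the CCAAT and CCACG ends, and each is written in the direction in which it reads as an ERSE.
Hspa5: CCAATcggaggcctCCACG
Hsp90b1, element nearer the start: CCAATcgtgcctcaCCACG
Hsp90b1, element farther from the start: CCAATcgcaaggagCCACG
Calr: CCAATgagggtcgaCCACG
Canx: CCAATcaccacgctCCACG
Pdia6: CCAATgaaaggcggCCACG
Dnajc3: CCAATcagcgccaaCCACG
Creld2: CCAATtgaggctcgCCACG
Derl3: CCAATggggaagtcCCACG
Syvn1: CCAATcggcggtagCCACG

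The related ERSE-II, searched as ATTGG followed after 1 base by CCACG, was in 2 of the 31 windows, those of Herpud1 and Dnajb11 (6.45%), and in 12 genes of the table (0.0444%). The core of the XBP1-type UPR element, searched as TGACG directly followed by TGG, was in 0 of the 31 windows and in 0.714% of all genes. The ATF4 element, searched as TGATG followed after 1 base by AA, was found in Herpud1 and Trib3 (6.45%), against 4.51% of all genes. A match is a description of the letters in the window and no evidence of binding. The windows of 4 genes to which the results return are printed 5′ to 3′ on the strand of the gene, with ERSE and ERSE-II letters in capitals.
Hspa5, chr2:34771840-34772139, plus strand: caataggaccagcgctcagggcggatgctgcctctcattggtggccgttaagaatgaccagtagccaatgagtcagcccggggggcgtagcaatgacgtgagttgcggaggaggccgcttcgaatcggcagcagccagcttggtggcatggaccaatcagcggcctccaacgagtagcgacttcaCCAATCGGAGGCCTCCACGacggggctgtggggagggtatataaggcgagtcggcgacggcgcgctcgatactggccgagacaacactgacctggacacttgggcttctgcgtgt
Hsp90b1, chr10:86705395-86705694, minus strand: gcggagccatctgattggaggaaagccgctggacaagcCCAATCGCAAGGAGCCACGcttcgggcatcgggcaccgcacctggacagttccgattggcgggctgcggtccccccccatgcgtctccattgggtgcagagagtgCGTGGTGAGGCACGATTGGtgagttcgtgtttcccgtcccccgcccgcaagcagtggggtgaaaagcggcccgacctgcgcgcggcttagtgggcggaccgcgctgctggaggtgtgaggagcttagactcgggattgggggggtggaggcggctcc
Derl3, chr10:75893148-75893447, plus strand: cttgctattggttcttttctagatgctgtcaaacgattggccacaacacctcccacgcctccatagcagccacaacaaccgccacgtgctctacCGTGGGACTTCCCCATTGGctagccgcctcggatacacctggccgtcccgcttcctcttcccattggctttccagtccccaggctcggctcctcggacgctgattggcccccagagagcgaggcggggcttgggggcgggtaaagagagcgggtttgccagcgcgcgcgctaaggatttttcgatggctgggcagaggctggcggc
Herpud1, chr8:94386179-94386478, plus strand: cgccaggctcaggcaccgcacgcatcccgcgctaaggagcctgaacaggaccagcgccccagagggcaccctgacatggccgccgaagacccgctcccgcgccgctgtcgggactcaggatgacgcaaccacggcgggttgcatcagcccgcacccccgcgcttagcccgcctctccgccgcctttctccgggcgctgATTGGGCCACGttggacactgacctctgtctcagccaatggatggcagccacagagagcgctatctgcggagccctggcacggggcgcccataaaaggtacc

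Levels are FPKM, fragments normalised to exon length and to the fragments counted in the library, so that they can be compared between genes. The totals implied by the FPKM were 14513137 to 18632384 fragments a library. Mitochondrial genes took 2.08% to 10.09% of the summed FPKM in the PBS group, 14.54% to 19.52% with vehicle and 7.4% to 11.1% with GGsTop. The markers of airway epithelium were high in every library, with a sum over 8 genes from 28515 to 52964 FPKM, and alveolar markers were present too. The alveolar sum was 10368 to 16605 FPKM in PBS, 5405 to 8891 FPKM with vehicle, without overlap, and 4770 to 12155 FPKM with GGsTop. The library PBS 3 stood apart before any comparison, since its deviation from the gene means rose by 0.533 log2 units per 10 points of GC content, against 0.0484 and 0.0611 in the other PBS libraries, −0.261 to −0.19 in the OVA/LPS/Vehicle group and 0.0464 to 0.108 in the OVA/LPS/GGsTop group. For this reason a second fit was made after each library was corrected for GC content, and its values are given where they bear on a call or a size. Thyroid and parathyroid markers summed to 104, 277 and 553 FPKM in the libraries OVA/LPS/Vehicle 12, 34 and 56, and to at most 7.92 FPKM in all others. Immature thymocyte markers reached 23.6 FPKM in 1 OVA/LPS/Vehicle library, 12, and at most 0.311 FPKM in the PBS group and 0.212 FPKM in the OVA/LPS/GGsTop group. In such bulk samples fewer cells of a type and less RNA per cell cannot be told apart.

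The fit held the 14004 genes with an average of 0.5 FPKM or more across the 11 libraries, all 40 genes among them. Ern2 passed this filter through the challenged groups, as its PBS mean was 0.361 FPKM. A gene was called higher or lower at an adjusted p under 0.05 (limma on log2(FPKM + 1), two-sided, Benjamini-Hochberg over all genes tested). Fold changes are on the log2(FPKM + 1) scale and are understated for genes near 1 FPKM.

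**Figure D1:**
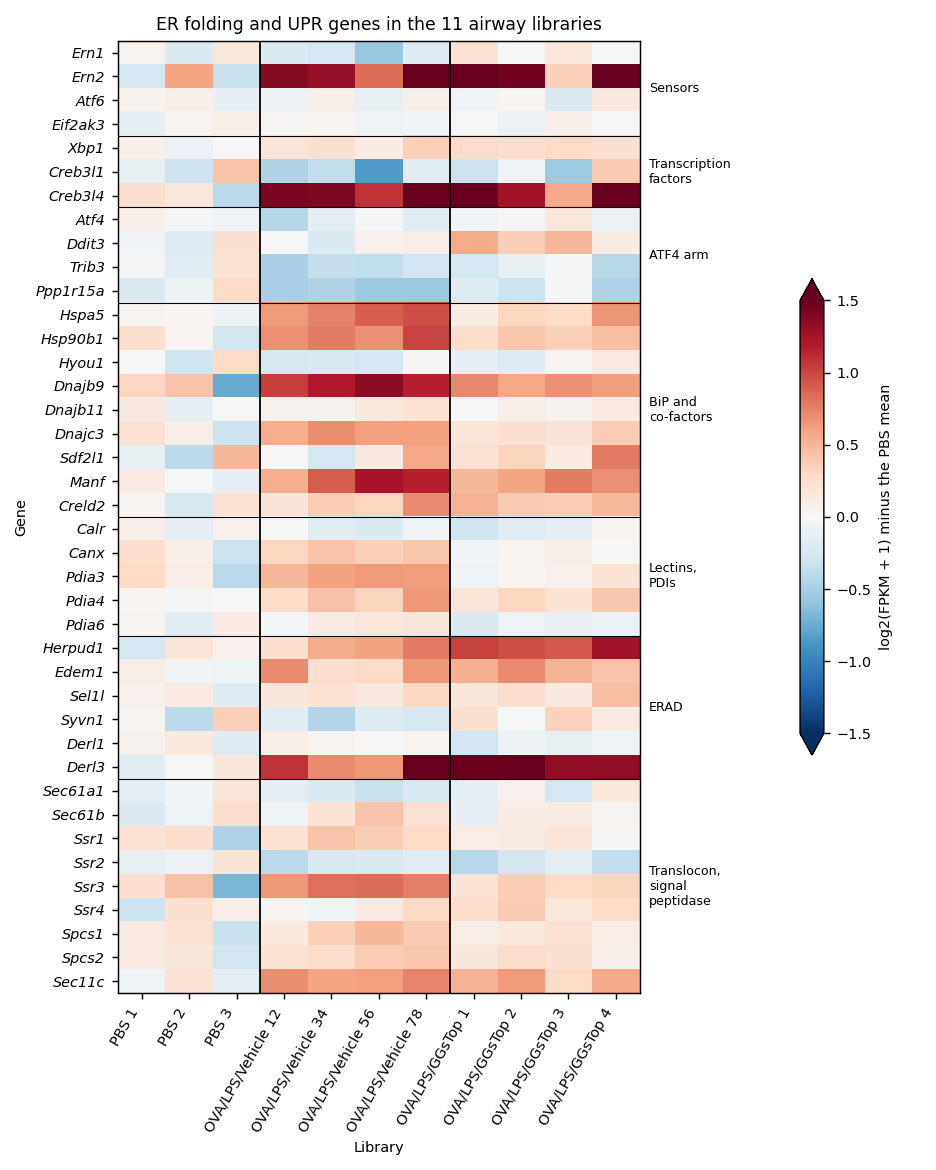
Level of the 40 genes in each of the 11 libraries (columns) as log2(FPKM + 1) minus the mean of the 3 PBS libraries, by role; colours stop at 1.5 in either direction. Hsp90b1, Dnajb9, Dnajc3 and Pdia3 are redder in every OVA/LPS/Vehicle library than in any OVA/LPS/GGsTop library, while Herpud1 is reddest with GGsTop.

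The first comparison addressed how the ER folding machinery differed between inflamed and PBS airway. Of the 40 genes, 16 were higher (40%) and 2 were lower in the OVA/LPS/Vehicle group than in the PBS group, against 15.9% higher and 22.1% lower among all genes tested. The higher genes were the BiP chaperone Hspa5 with 5 of its partners (Hsp90b1, Dnajb9, Dnajc3, Manf and Creld2), the glycoprotein folding genes Canx, Pdia3 and Pdia4, the ERAD genes Herpud1, Edem1 and Derl3, the entry genes Ssr3 and Sec11c, and the secretory cell genes Ern2 and Creb3l4. Among the 16, Ern2 had entered the fit only through the challenged groups, so its call is limited by the filter. The lower genes, Trib3 and Ppp1r15a, both belong to the ATF4 arm. The median log2 fold change was 0.21 over the 40 genes and −0.01 over all genes tested.
With GC content corrected, 15 genes were higher and 0 lower, against 8.11% higher and 13.3% lower among all genes, and 13 of the 18 calls were shared. Canx, Edem1, Ssr3, Trib3 and Ppp1r15a lost their calls, while Xbp1 and Sec61b gained one. For the count of 0, limma gave 0 lower genes at an unadjusted p under 0.05 after this correction, and limma voom on the recovered fragments without it called 1.
Without PBS 3, 13 genes were higher and 1 lower, against 8.39% and 13.5% of all genes. Without PBS 2, 18 were higher and 4 lower, against 21.7% and 24.2%. With PBS 3 left out and GC corrected 7 were higher (Hspa5, Dnajb9, Manf, Creld2, Herpud1, Derl3 and Sec11c), against 1.73% of all genes. Rescaling the libraries to the same FPKM total moved the median of all genes from −0.01 to −0.15. With it 11 genes were higher and 6 lower, against 8.8% and 32.6% of all genes. Leaving out the 3 libraries with thyroid markers left 1 OVA/LPS/Vehicle library, 78, assumed to vary like the other groups. Among all genes that limma fit called 3 higher and 1 lower, so its 0 calls among the 40 genes say nothing of them, while their median was 0.33.

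The next comparison addressed what differed with GGsTop in challenged airway. Relative to vehicle, Hspa5 and the disulfide isomerase Pdia3 were lower and Herpud1 was higher with GGsTop, and 37 of the 40 genes passed in neither direction. This share of 1 higher gene (2.5%) stood beside 6.90% of all genes tested, and the 2 lower genes (5.0%) beside 1.81%. The median log2 fold change was −0.01 over the 40 genes and 0.03 over all genes. In the GC-corrected fit 0 of the 40 genes were called, against 1.80% higher and 0.436% lower among all genes. In that corrected limma fit 3 genes were higher and 6 lower at an unadjusted p under 0.05.
The calls depended on single libraries and on scaling, as did the calls over all genes. Leaving out OVA/LPS/GGsTop 4 gave Hspa5 and Pdia3 lower and Ddit3 higher, against 6.18% higher and 1.33% lower among all genes. Leaving out OVA/LPS/Vehicle 12 gave 1 call (Manf, lower), against 4.46% and 0.814%. Leaving out any of the other 6 libraries gave 0. Those 6 fits called 0.143% to 2.21% of all genes higher and 0.0286% to 0.393% lower, so these 0 calls say little of the 40 genes. The split was 4 higher and 0 lower with the same FPKM total (all genes 14.5% and 1.11%). It was 0 higher and 4 lower with the same median (all genes 2.74% and 2.91%).

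The last comparison set the GGsTop-treated airway against PBS. Of the 40 genes 5 were higher, the ERAD genes Herpud1, Edem1 and Derl3, the signal peptidase subunit Sec11c and the transcription factor Creb3l4, and 0 were lower, against 2.06% higher and 0.821% lower among all genes tested. These 5 genes were also among those higher in the OVA/LPS/Vehicle group, a comparison that shares the PBS libraries with this one. The median log2 fold change was 0.18 over the 40 genes and 0.01 over all genes. After the GC correction 6 genes were higher (Creb3l4, Manf, Creld2, Herpud1, Derl3 and Sec11c) and 0 lower, against 3.01% and 1.34% of all genes. At an unadjusted p under 0.05 limma gave 15 higher and 1 lower gene, Ssr2, and limma voom called 4 higher and 0 lower.
With the replicate number as a block, which pairs PBS 1 to 3 with OVA/LPS/GGsTop 1 to 3, 2 genes were called (Creb3l4 and Derl3). No label gives this pairing, and some libraries of unlike number correlated more than those of the same number. With block and GC correction together 5 were (Ern2, Creb3l4, Creld2, Herpud1 and Derl3). Among all genes these 2 fits called 0.328% and 2.14% higher. Leaving out PBS 1 gave 0 calls by limma, PBS 2 gave 8, PBS 3 or OVA/LPS/GGsTop 1 gave 1, OVA/LPS/GGsTop 2 or 4 gave 2 and OVA/LPS/GGsTop 3 gave 5. The share of all genes called higher moved with these counts, at 0.15% without PBS 1, 6.82% without PBS 2 and 0.278% without PBS 3. Without OVA/LPS/GGsTop 1, 2, 3 and 4 in turn it was 0.193%, 0.807%, 3.92% and 1.11%.

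**Figure D2:**
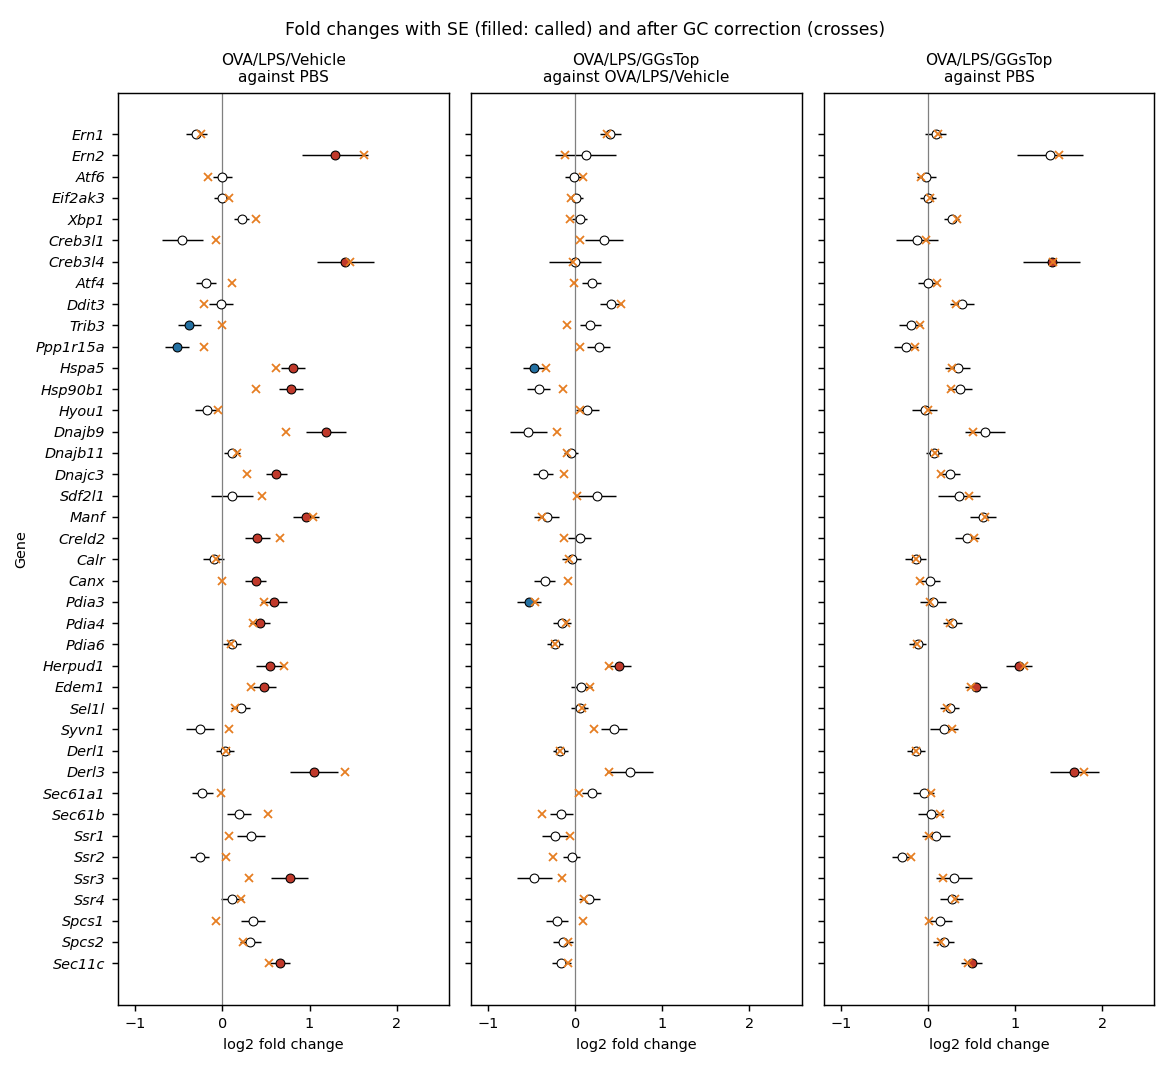
Log2 fold change of each gene with its standard error in the 3 comparisons (circles, filled where the adjusted p was under 0.05), and after GC correction (crosses). In OVA/LPS/Vehicle against PBS 16 circles are filled above 0 and 2 below, whereas with GGsTop against vehicle 1 is filled above 0 and 2 below.

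Of the 4 sensors Ern2 passed the test, in 1 comparison, and it had entered the fit only through the challenged groups, where it was high. Ern1, which encodes the ubiquitous IRE1α, was at 8.28, 6.82 and 9 FPKM in the PBS libraries 1 to 3, at 6.79, 6.55, 5.07 and 6.85 FPKM in OVA/LPS/Vehicle 12, 34, 56 and 78, and at 9.41, 8.04, 9.06 and 7.93 FPKM in OVA/LPS/GGsTop 1 to 4. Every OVA/LPS/GGsTop library lay above every OVA/LPS/Vehicle library, yet the difference of 0.40 (SE 0.12) did not pass over all genes (adjusted p = 0.0526). Eif2ak3, which encodes PERK, was at 6.17, 7 and 7.2 FPKM in PBS, 6.87, 6.93, 6.49 and 6.57 FPKM with vehicle and 6.74, 6.33, 7.18 and 6.76 FPKM with GGsTop, and its fold changes were −0.01 (95% interval −0.20 to 0.18) against PBS and 0.01 (−0.17 to 0.18) with GGsTop against vehicle. Atf6 was at 10.8, 11 and 9.45 FPKM, at 9.76, 11.1, 9.58 and 11.1 FPKM and at 10, 10.6, 8.88 and 11.6 FPKM in the same order, with −0.00 (−0.24 to 0.23) and −0.02 (−0.24 to 0.20) in the same comparisons. For these 2 genes the groups overlapped throughout.
Ern2 was at 0.0896, 0.958 and 0.0362 FPKM in the PBS libraries, which rest on 4, 44 and 2 fragments. It was at 2.39, 2.24, 1.33 and 2.97 FPKM in the OVA/LPS/Vehicle libraries 12, 34, 56 and 78, all above PBS. In the OVA/LPS/GGsTop libraries it was at 2.82, 2.56, 0.663 and 5.22 FPKM, so that library 3 fell within the PBS range. Its log2 fold changes were 1.29 (SE 0.38, adjusted p = 0.0229) for OVA/LPS/Vehicle against PBS, 1.40 (SE 0.38, adjusted p = 0.0701) for OVA/LPS/GGsTop against PBS and 0.12 (SE 0.35, adjusted p = 0.852) between the challenged groups. The first of these was lost without PBS 1, PBS 3 or OVA/LPS/Vehicle 78, with an adjusted p of up to 0.0981.

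Of the transcription factors, Creb3l4 passed against PBS in both challenged groups, Xbp1 did not pass and Creb3l1 varied within groups. CREB3L1 and CREB3L4 are membrane-bound factors of the ER that are cleaved before they act. Creb3l4 was at 1.46, 1.31 and 0.575 FPKM in the PBS libraries, at 4.53, 4.48, 3.4 and 6.02 FPKM with vehicle and at 5.06, 3.98, 2.11 and 9.05 FPKM with GGsTop. All challenged libraries lay above all PBS libraries, by 1.41 (SE 0.33, adjusted p = 0.009) with vehicle and 1.42 (SE 0.33, adjusted p = 0.0438) with GGsTop. Between the challenged groups the difference was 0.00 (95% interval −0.66 to 0.66). The call with GGsTop was lost without PBS 1 or 3 or OVA/LPS/GGsTop 1, 2 or 4, with an adjusted p of up to 0.162.
Xbp1 was the most abundant of the 3, at 71.3, 63.3 and 67.7 FPKM in PBS, 76.5, 79.1, 73 and 86.4 FPKM with vehicle and 82.1, 81, 83.2 and 79.3 FPKM with GGsTop. The challenged libraries again lay above PBS, but the fold changes of 0.22 (SE 0.09, adjusted p = 0.0804) and 0.27 (SE 0.09, adjusted p = 0.141) did not pass, and the first was 0.39 and called after the GC correction. FPKM of a whole gene do not separate spliced from unspliced Xbp1, so that the splicing by IRE1 was not measured.
Creb3l1 was at 10.8, 9.29 and 16.1 FPKM in PBS, 8.33, 8.87, 6.07 and 10.4 FPKM with vehicle and 9.21, 11.3, 7.74 and 15.8 FPKM with GGsTop. The groups overlapped, and the change of −0.46 (SE 0.24, adjusted p = 0.147) against PBS with vehicle was −0.07 after the GC correction.

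In the ATF4 arm the genes of stress feedback were lower or did not pass. Atf4 itself was at 99.8, 93.8 and 91.4 FPKM in PBS, 70.5, 86.6, 92.9 and 84.7 FPKM with vehicle and 92.1, 93.7, 106 and 89.4 FPKM with GGsTop, with overlapping groups in each comparison. Trib3, a pseudokinase induced by ATF4 and CHOP, was at 2.34, 2.03 and 2.93 FPKM in PBS and at 1.43, 1.67, 1.65 and 1.8 FPKM with vehicle, a fall of −0.38 (SE 0.13, adjusted p = 0.0387). Ppp1r15a encodes GADD34, which lifts the block of translation, and was at 20.6, 22.9 and 29.8 FPKM in PBS and 16.9, 17.4, 16.1 and 16.1 FPKM with vehicle, a fall of −0.52 (SE 0.14, adjusted p = 0.0142). With GGsTop the values were 1.84, 2.17, 2.36 and 1.56 FPKM for Trib3 and 21.1, 19.2, 23.8 and 17.3 FPKM for Ppp1r15a, between the other groups on average and overlapping with both.
The transcripts of Trib3 and Ppp1r15a are rich in GC (58.2% and 55.7%), and after the GC correction their fold changes were 0.00 and −0.21 and were not called. The call of Trib3 was also lost in 6 of the 7 fits that left out 1 library, all but that without PBS 2, with an adjusted p of up to 0.139.
Ddit3, which encodes the pro-apoptotic factor CHOP, was at 8.22, 7.31 and 10.1 FPKM in PBS, 8.4, 7.13, 8.94 and 8.98 FPKM with vehicle and 12.9, 11.2, 12.4 and 9.27 FPKM with GGsTop. Each OVA/LPS/GGsTop library was above each OVA/LPS/Vehicle library, and the difference of 0.41 (SE 0.13, adjusted p = 0.0634) did not pass. Ddit3 shares 68 bases of exon with Mars on the opposite strand, and whether counting used strand is not stated.

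The BiP system held the largest number of higher genes in inflamed airway, 6 of 9. Hspa5, the ER HSP70 that binds unfolded chains and restrains the sensors, was at 97.8, 97.7 and 90.7 FPKM in PBS, at 149, 160, 179 and 188 FPKM in OVA/LPS/Vehicle 12, 34, 56 and 78 and at 103, 119, 116 and 152 FPKM in OVA/LPS/GGsTop 1 to 4. The groups with and without challenge did not overlap, and the highest GGsTop library, 4, lay within the vehicle range. Its fold change was 0.81 (SE 0.14, adjusted p = 0.00394) with vehicle against PBS, −0.47 (SE 0.13, adjusted p = 0.0463) with GGsTop against vehicle and 0.34 (SE 0.14, adjusted p = 0.2) with GGsTop against PBS. With GC content corrected, these were 0.62, −0.34 and 0.28, of which the first was called.
Hsp90b1, the ER HSP90 also known as GRP94, was at 82.7, 71.4 and 57.3 FPKM in PBS, 113, 119, 113 and 142 FPKM with vehicle and 84, 93.4, 89.4 and 96 FPKM with GGsTop. The 3 groups did not overlap, with the GGsTop libraries between the other groups. The rise of 0.79 (SE 0.14, adjusted p = 0.00391) passed, and the difference of −0.42 (SE 0.13, adjusted p = 0.057) between GGsTop and vehicle did not. In the GC-corrected fit they were 0.39, still called, and −0.14, the transcript having a GC content of 42.1%.
Dnajb9, a BiP co-chaperone that acts on IRE1, was at 20.2, 21.9 and 9.1 FPKM in PBS, 34, 38, 42.5 and 37.2 FPKM with vehicle and 26.9, 24.4, 26.3 and 25.3 FPKM with GGsTop. Dnajc3, a co-chaperone that inhibits PERK, was at 34.9, 31.8 and 23.8 FPKM, at 43.9, 48.9, 46.3 and 46.2 FPKM and at 33.8, 35.1, 34.3 and 39.2 FPKM in the same order. Both were lowest in PBS 3, and in both every vehicle library exceeded every other library. Against PBS they rose with vehicle by 1.19 (SE 0.23, adjusted p = 0.00503) and 0.62 (SE 0.12, adjusted p = 0.00591), and after the GC correction by 0.73 and 0.28, both still called. With GGsTop against vehicle the values were −0.54 (SE 0.21, adjusted p = 0.116) and −0.37 (SE 0.12, adjusted p = 0.0623), and −0.21 and −0.13 after the GC correction.
Manf, a secreted factor held in the ER by BiP, was at 12, 10.9 and 9.88 FPKM in PBS, 16.4, 21.3, 27.1 and 25.6 FPKM with vehicle and 15.8, 17, 19.2 and 18.2 FPKM with GGsTop. It rose by 0.96 (SE 0.15, adjusted p = 0.00365) with vehicle, and all GGsTop libraries were above PBS too, by 0.63 (SE 0.15, adjusted p = 0.0526). Manf shares 146 bases of exon with Dcaf1 on the opposite strand.
Creld2, a binding partner of isomerases, was at 40, 32.8 and 45.4 FPKM in PBS, 44.7, 51.1, 49 and 64.5 FPKM with vehicle and 56.6, 51.7, 51.3 and 54.9 FPKM with GGsTop. Its rise of 0.40 (SE 0.14, adjusted p = 0.0421) with vehicle was small, with OVA/LPS/Vehicle 12 inside the PBS range, and was lost without PBS 1 or 2 or OVA/LPS/Vehicle 34, 56 or 78, with an adjusted p of up to 0.13.
Sdf2l1, which keeps BiP clients soluble, varied widely, at 18, 14.6 and 27.9 FPKM in PBS, 19.4, 16, 21.5 and 29.7 FPKM with vehicle and 22.8, 24.8, 21.3 and 33.8 FPKM with GGsTop. Its groups overlapped in all comparisons. The ER HSP110 Hyou1 (16.9 to 26.3 FPKM over all libraries) and the co-chaperone Dnajb11 (25.2 to 31.9 FPKM) passed in none.

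**Figure D3:**
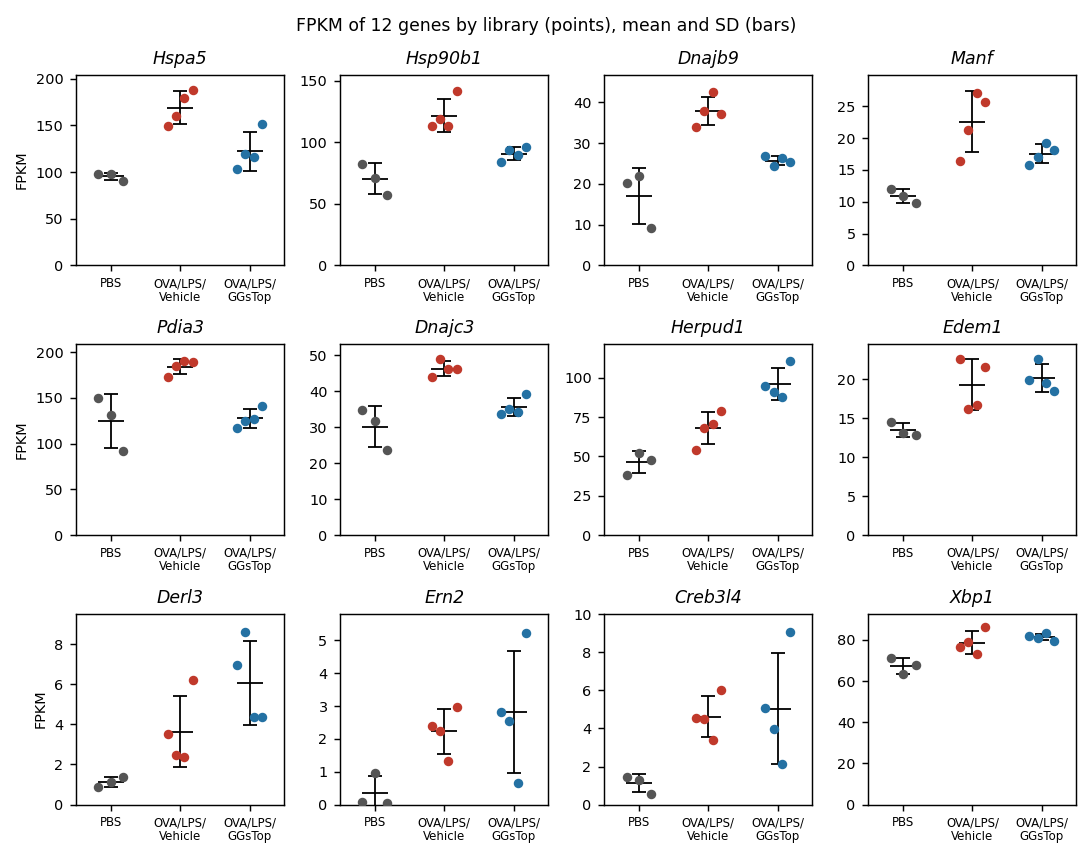
FPKM of 12 genes in each library (points) with the group mean and SD (bars, 3 PBS and 4 libraries in each other group; linear axes from 0, where the lower bar of Ern2 in PBS is cut). Hspa5, Hsp90b1, Dnajb9, Dnajc3 and Pdia3 are highest with vehicle, while Herpud1 is highest with GGsTop, from 88 to 111 FPKM.

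Among the lectin chaperones and isomerases, 3 of 5 genes rose in inflamed airway. Pdia3, which forms disulfide bonds in glycoproteins held by calnexin and calreticulin, was at 150, 131 and 92.1 FPKM in PBS, 173, 185, 190 and 189 FPKM with vehicle and 117, 125, 127 and 141 FPKM with GGsTop. Every vehicle library exceeded every other library, while GGsTop and PBS overlapped. The fold changes were 0.59 (SE 0.15, adjusted p = 0.0135) with vehicle against PBS, −0.53 (SE 0.14, adjusted p = 0.0425) with GGsTop against vehicle and 0.06 (SE 0.15, adjusted p = 0.846) with GGsTop against PBS. After the GC correction the first was 0.48 and called, and the next was −0.46 and not called.
Canx, the membrane lectin calnexin, was at 81, 72.3 and 54.7 FPKM in PBS, 85.9, 92.1, 87.7 and 91.8 FPKM with vehicle and 66.7, 70.4, 72.8 and 68.7 FPKM with GGsTop. Its rise of 0.38 (SE 0.12, adjusted p = 0.0337) became −0.01 after the GC correction, its transcript having a GC content of 42.2%. It was also lost without PBS 3 or OVA/LPS/Vehicle 34, 56 or 78, with an adjusted p of up to 0.0799.
Pdia4 was steady in PBS, at 44.9, 43.4 and 43.9 FPKM, and was at 53.5, 60.3, 55.6 and 70 FPKM with vehicle and 50.2, 55.4, 51 and 58.4 FPKM with GGsTop. All challenged libraries were above PBS, by 0.43 (SE 0.11, adjusted p = 0.0133) with vehicle and by 0.28 (SE 0.11, adjusted p = 0.182) with GGsTop. The soluble lectin Calr had the highest PBS mean of the 40 genes, 180.0 FPKM ± 14.8 (SD, n = 3), and was at 167 ± 11.2 (SD, n = 4) with vehicle and 163 ± 15.7 (SD, n = 4) with GGsTop. Calr and the isomerase Pdia6 passed in none of the comparisons, although both carry an ERSE in the window, as do Hspa5 and Canx.

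Among the ERAD genes 3 of 6 were higher than PBS with vehicle, and the same 3 with GGsTop. Herpud1, a membrane scaffold of the degradation complex, was at 38.5, 52.4 and 47.9 FPKM in PBS, 54.4, 68.1, 70.5 and 78.6 FPKM with vehicle and 94.7, 91, 88 and 111 FPKM with GGsTop. The 3 groups did not overlap and rose in this order. Its fold changes were 0.54 (SE 0.15, adjusted p = 0.0168) with vehicle against PBS, 0.50 (SE 0.14, adjusted p = 0.0459) with GGsTop against vehicle and 1.04 (SE 0.15, adjusted p = 0.00965) with GGsTop against PBS. With GC content corrected, they were 0.71, 0.39 and 1.10, of which the first and the last were called. The first call was lost without PBS 1 (adjusted p = 0.0625), as was the last (adjusted p = 0.0536), and the call between the challenged groups was lost without any 1 of the 8 libraries, with an adjusted p from 0.0647 to 0.113.
Derl3, a derlin of secretory cells, was at 0.899, 1.13 and 1.4 FPKM in PBS (27 to 52 fragments), 3.53, 2.48, 2.36 and 6.22 FPKM with vehicle and 6.96, 8.61, 4.36 and 4.37 FPKM with GGsTop. All challenged libraries were above PBS, by 1.05 (SE 0.28, adjusted p = 0.0146) with vehicle and 1.68 (SE 0.28, adjusted p = 0.0151) with GGsTop, and both calls stood after the GC correction. Between the challenged groups, which overlapped, the difference was 0.63 (SE 0.26, adjusted p = 0.124). The call with GGsTop against PBS was lost without PBS 1 or 3 or OVA/LPS/GGsTop 1, with an adjusted p of up to 0.0803.
Edem1, which extracts misfolded glycoproteins from folding, was at 14.5, 13.1 and 12.8 FPKM in PBS, 22.6, 16.2, 16.7 and 21.6 FPKM with vehicle and 19.9, 22.6, 19.5 and 18.5 FPKM with GGsTop. It was higher than PBS in every challenged library, by 0.48 (SE 0.13, adjusted p = 0.016) and 0.55 (SE 0.13, adjusted p = 0.0477). Neither call stood after the GC correction, at 0.33 and 0.49, and the first was lost without PBS 3 (adjusted p = 0.0513). The second was lost without any 1 library other than PBS 2, with an adjusted p of up to 0.139. The ubiquitin ligase Syvn1, its partner Sel1l and the ubiquitous derlin Derl1 passed in none. Syvn1 was nearest, 0.44 (SE 0.15, adjusted p = 0.0794) with GGsTop against vehicle, where the libraries of the groups did not overlap, and 0.21 after the GC correction.

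At the entry to the ER, Sec11c, a catalytic subunit of the signal peptidase, was higher than PBS in both challenged groups. It was at 5.9, 7.36 and 5.56 FPKM in PBS, 10.7, 9.92, 10.1 and 11 FPKM with vehicle and 9.42, 10.3, 7.76 and 9.72 FPKM with GGsTop. All challenged libraries were above PBS, by 0.66 (SE 0.12, adjusted p = 0.00409) with vehicle and 0.50 (SE 0.12, adjusted p = 0.0448) with GGsTop, and both calls stood after the GC correction. Without PBS 1 or 3 or OVA/LPS/GGsTop 1, 2 or 4 the second was lost, with an adjusted p of up to 0.146.
Ssr3, a subunit of the translocon-associated protein complex, was at 51.3, 58.7 and 26.4 FPKM in PBS, 68, 77.3, 77.5 and 73.7 FPKM with vehicle and 49.7, 55.9, 52.9 and 54.6 FPKM with GGsTop. Its rise of 0.77 (SE 0.21, adjusted p = 0.0174) with vehicle was 0.31 and not called after the GC correction, its transcript having a GC content of 40.8%, and it was 0.43 without PBS 3. The channel subunits Sec61a1 and Sec61b, the other 3 subunits Ssr1, Ssr2 and Ssr4, and the peptidase subunits Spcs1 and Spcs2 passed in none of the comparisons on the deposited values. Of these, Sec61a1 and Ssr2 lay below PBS in every vehicle library, with −0.23 (SE 0.12, adjusted p = 0.139) and −0.26 (SE 0.11, adjusted p = 0.0866). Spcs1 shares 252 bases, 16.3% of its exon length, with Glt8d1 on the opposite strand.

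The fold changes of the 40 genes varied with the GC content of the transcripts in the comparisons that include the vehicle group, and less with GGsTop against PBS. Over the 40 genes, which were measured in the same libraries, the Spearman correlation of GC content with the fold change was −0.449 for vehicle against PBS, 0.719 for GGsTop against vehicle and −0.196 for GGsTop against PBS, and 0.0313, 0.197 and 0.0415 after the correction. Over all 13987 genes with a GC content it was −0.593, 0.624 and −0.338, and −0.0308, 0.00997 and −0.0391 after the correction. The relation is therefore not particular to the 40 genes. The genes higher with vehicle had a median GC content of 46.8%, against 50.4% over the 40 genes and 49.9% over all genes. The GGsTop comparison shares the vehicle libraries with the first, so that opposite signs in them are not separate results. The part of the GC slope in the differences was not tested.

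**Figure D4:**
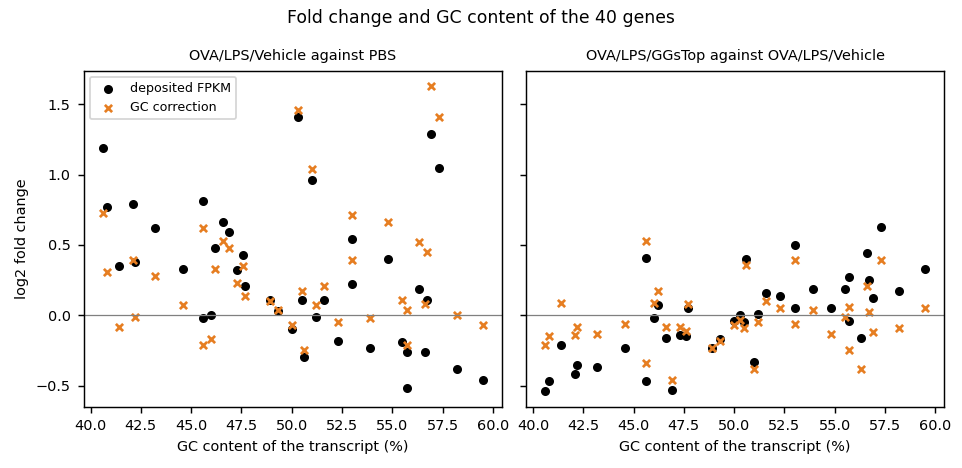
Log2 fold change of the 40 genes against the GC content of their longest transcript (%), from the deposited FPKM (points) and after GC correction (crosses). The points rise to the right for GGsTop against vehicle (Spearman 0.719, and 0.624 over all genes) and the crosses less so (0.197, and 0.00997 over all genes).

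The genes with an ERSE were compared with the other genes by their counts. Of the 9 genes with an ERSE, 6 were higher with vehicle against PBS (5 after GC correction), with a median fold change of 0.40 (0.28), and of the 22 genes with a window and no ERSE 7 were higher and 2 lower (7 and 0), with a median of 0.21 (0.22). Among all genes tested 15.9% were higher and 22.1% lower (8.11% and 13.3%), with a median of −0.01 (−0.04). Whether these counts depend on the element was not tested. Hsp90b1, with 2 exact ERSE matches in its window, rose by 0.79 and Hspa5, with 1, by 0.81, and after the GC correction by 0.39 and 0.62. Elements that differ from the searched letters were not counted, so the matches do not give the number of elements in a gene. Herpud1, in whose window ERSE-II and an ATF4 element were found and no ERSE, was the gene that was higher in all 3 comparisons. Dnajb11, the other gene with ERSE-II, passed in none and was at 0.11 with vehicle against PBS. Trib3, the other gene with an ATF4 element, was lower there, by −0.38. With GGsTop against vehicle the medians were −0.23 and 0.03, or −0.13 and −0.04 after the GC correction, and on the deposited values Hspa5 was the gene with an ERSE that passed. Over all genes this median was 0.03, or 0.04 after the GC correction, and 6.90% were higher and 1.81% lower on the deposited values.

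Markers of secretory cells were compared with the genes that such cells use. The sum of 8 goblet cell markers was 5.87 to 111 FPKM in PBS, 869 to 1886 FPKM with vehicle and 122 to 2394 FPKM with GGsTop. In each group the libraries lowest and highest in this sum were the lowest and highest in Ern2. With GGsTop these were libraries 3 and 4, which were also lowest and highest in Creb3l4. Among them the mucin Muc5ac was at 1.51 FPKM in library 3 and 23.8 FPKM in library 4.
The sum of the plasma cell markers, of which 7 of 10 were found, was 81.8 to 103 FPKM in PBS, 205 to 732 FPKM with vehicle and 257 to 646 FPKM with GGsTop. In the challenged libraries most of it came from Jchain, the joining chain of antibodies, and without Jchain the sum was 70.1 to 84.0 FPKM in PBS, 62.0 to 69.9 FPKM with vehicle and 65.4 to 82.8 FPKM with GGsTop. The plasma cell genes Mzb1 (1.14 to 1.86 FPKM) and Tnfrsf17 (0.154 to 1.76 FPKM) overlapped with PBS in the vehicle group (0.928 to 1.59 and 0.263 to 0.978 FPKM). With GGsTop, Mzb1 was at 2.9, 3.29, 1.67 and 4 FPKM in libraries 1 to 4, above every PBS library, while Tnfrsf17 (0.233 to 1.24 FPKM) overlapped with PBS. Derl3 had the same order of libraries as this sum within the vehicle group and within the GGsTop group. Ern2 and Creb3l4 also had this order within the vehicle group, and had the full order of the goblet cell sum in neither group, whereas Creb3l1, which was not called, had it in both. Within the GGsTop group the goblet cell sum had the same order as the cartilage marker sum (20.8 to 251 FPKM) and the serous gland marker sum. Sdf2l1 had that order there too, so such a match is not particular to goblet cells. The sum of 6 serous gland markers was 3.63 to 180 FPKM in PBS, 224 to 1582 FPKM with vehicle and 15.7 to 455 FPKM with GGsTop, with Dcpp3 at 0 in every library of each group. No goblet or plasma cell marker that was found was at 0 in all libraries of a group. The part of these cell types in the differences was not tested.

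**Figure D5:**
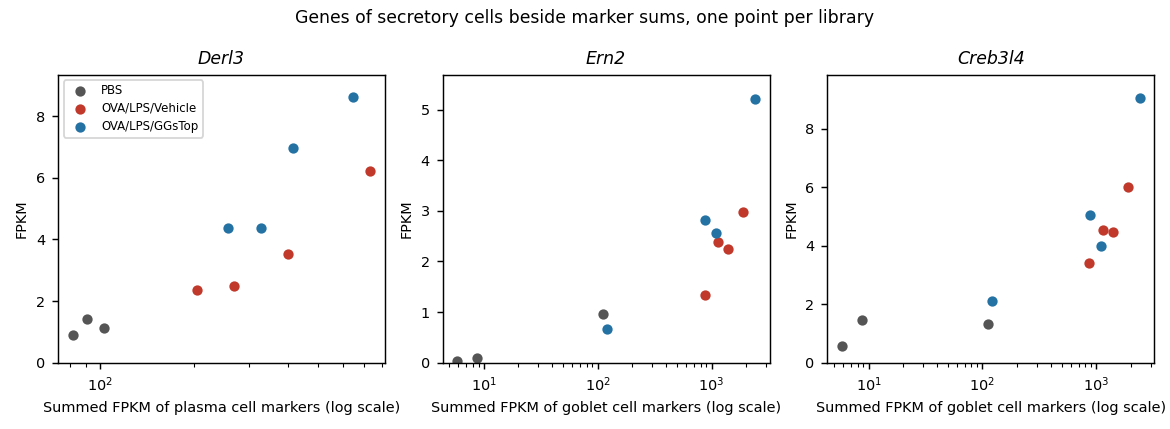
FPKM of Derl3 against the summed FPKM of plasma cell markers, and of Ern2 and Creb3l4 against that of goblet cell markers (log x axis, linear y axis), with 1 point per library and the plasma cell sum mostly Jchain. The PBS libraries lie at the lower left, with OVA/LPS/GGsTop 3 close to PBS 2 in Ern2, and the library OVA/LPS/GGsTop 4 is highest in Ern2 (5.22 FPKM) and Creb3l4 (9.05 FPKM).

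Other genes of the same pathways, 104 in 6 lists, were split in direction. With vehicle against PBS 23 of them were higher (22.1%) and 22 lower (21.2%), with a median fold change of 0.05, against 15.9% and 22.1% of all genes tested, and after the GC correction 12 were higher and 13 lower. The other regulators of the UPR were mostly lower, 7 of 12 with 1 higher. They included Mbtps1, the protease that releases ATF6 (−0.66, SE 0.11, adjusted p = 0.0038), Wfs1, a negative regulator of ATF6 (−0.71, SE 0.14, adjusted p = 0.00536) and Traf2, an adaptor of IRE1 (−0.40, SE 0.10, adjusted p = 0.0111), and 6 of the 12 were lower after the GC correction, these 3 among them. Of 22 other chaperones and oxidative folding genes, 8 were higher and 1 lower, led by the thioredoxin-like Tmx1 (1.07, SE 0.20, adjusted p = 0.00449), Hspa13 (0.80, SE 0.15, adjusted p = 0.00476) and Tmx3 (1.08, SE 0.26, adjusted p = 0.0105). In the GC-corrected fit 4 of the 22 were higher, with Tmx1 at 0.62, Hspa13 at 0.31 and Tmx3 at 0.44.
Of 15 other targeting and translocon genes, 5 were higher and 4 lower. Sec61g, the small channel subunit, rose by 0.70 (SE 0.10, adjusted p = 0.00337), Tram1 by 0.67 (SE 0.11, adjusted p = 0.00365) and the signal peptidase subunit Spcs3 by 0.78 (SE 0.16, adjusted p = 0.00641). After the GC correction these were 0.44, 0.27 and 0.30, and Spcs3 was not called. The remaining lists were mixed. Of 17 other ATF4 targets 4 were higher and 5 lower, with Cebpg (0.71, adjusted p = 0.00605), Atf5 (−0.82, adjusted p = 0.0076) and Shmt2 (−0.57, adjusted p = 0.00865) of the smallest p. Of 21 genes of glycan quality control 3 were higher and 2 lower, with Edem3 (0.67, adjusted p = 0.00793), Ganab (−0.32, adjusted p = 0.029) and Man1b1 (−0.32, adjusted p = 0.0298), and of 17 other ERAD genes 2 were higher and 3 lower, with Erlec1 (0.82, adjusted p = 0.00605), Nploc4 (−0.32, adjusted p = 0.0155) and Ufd1 (0.26, adjusted p = 0.0356). With GC content corrected, Shmt2 (−0.21), Ganab (−0.25), Man1b1 (−0.12), Nploc4 (−0.14) and Ufd1 (0.15) were not called, while Cebpg (0.38), Atf5 (−0.43), Edem3 (0.35) and Erlec1 (0.35) were.
With GGsTop against vehicle 7 of the 104 genes were higher (6.73%) and 5 lower (4.81%), against 6.90% and 1.81% of all genes tested. Tram1 (−0.66, SE 0.10, adjusted p = 0.0126), Sec61g (−0.51, SE 0.09, adjusted p = 0.0194) and Hspa13 (−0.52, SE 0.14, adjusted p = 0.0437) were lower. Creb3l2 (0.40, SE 0.09, adjusted p = 0.0241), Wfs1 (0.60, SE 0.13, adjusted p = 0.0252), Pdia2 (0.81, adjusted p = 0.0276), Edem2 (0.39, adjusted p = 0.0312), Txndc11 (0.33, adjusted p = 0.0345), Sesn2 (0.54, adjusted p = 0.0411) and Srprb (0.34, adjusted p = 0.0437) were higher. In the GC-corrected fit 2 were higher (Creb3l2 and Txndc11) and 1 lower (Tram1). With GGsTop against PBS 1 of the 104 was called, the mTORC1 inhibitor Ddit4, which rose by 1.35 (SE 0.23, adjusted p = 0.0157), and by 1.46 after the GC correction. In that comparison 2.06% of all genes tested were higher and 0.821% lower on the deposited values.

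Chaperones outside the ER were set beside them. Of 12 cytosolic heat shock genes 5 were higher with vehicle and 7 with GGsTop, each against PBS, and none of these were lower, with medians of 1.09 and 1.16. The shares of 41.7% and 58.3% stood beside 15.9% and 2.06% of all genes tested. After the GC correction 5 and 8 were higher, against 8.11% and 3.01% of all genes, with medians of 0.76 and 1.04. Hspa4l, a cytosolic HSP110, rose by 1.30 (SE 0.21, adjusted p = 0.00365) and 1.15 (SE 0.21, adjusted p = 0.02). With vehicle Hsp90aa1 rose by 1.45 (SE 0.28, adjusted p = 0.00535) and Hspa8 by 0.90 (SE 0.18, adjusted p = 0.00588), and with GGsTop Hsph1 rose by 2.08 (SE 0.33, adjusted p = 0.0144) and Dnajb1 by 1.28 (SE 0.27, adjusted p = 0.0302). Between the challenged groups Hspb1 was higher with GGsTop, by 0.95 (SE 0.26, adjusted p = 0.044), and was at 0.67 and not called after the GC correction. This 1 of the 12 genes (8.33%) stood beside 6.90% of all genes tested. Of 9 mitochondrial chaperones and proteases 4 were higher and 2 lower with vehicle against PBS, with Hspd1 at 1.08 (SE 0.24, adjusted p = 0.00821), Hspe1 at 0.72 (SE 0.18, adjusted p = 0.0128) and Lonp1 at −0.52 (SE 0.13, adjusted p = 0.0128). Their shares of 44.4% higher and 22.2% lower stood beside 15.9% and 22.1% of all genes tested. With GC content corrected, 2 were higher (Hspd1, 0.97, and Hspe1, 0.53), against 8.11% of all genes, and Lonp1 (−0.19) was not called. In the comparisons with GGsTop no gene of this list passed on the deposited values. After the GC correction 2 were higher than PBS, against 3.01% of all genes.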

How the data were processed

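Poly-A selected RNA of 11 libraries (3 PBS, 4 OVA/LPS/Vehicle, 4 OVA/LPS/GGsTop) was sequenced. The authors deposited 1 table of FPKM per gene, and the submitters' processing notes name cutadapt 1.15, HISAT2 2.0.5, HTSeq 0.9.1 and the build mm39. The gene annotation and the strand setting are not given in the sources used here. The study's methods name DESeq, but FPKM are not counts, so limma 3.58.1 in R 4.3.3 was fitted with a mean-variance trend to log2(FPKM + 1) of all 3 groups, over 14004 genes (average of 0.5 FPKM or more). P-values were two-sided and adjusted (Benjamini-Hochberg), with a threshold of 0.05.

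Of 21899 gene identifiers, 21795 were matched to a symbol, exon length and GC content in the GENCODE mouse annotation of GRCm38. Where identifiers shared 1 of 26 symbols, that of the highest mean was kept, and 3627 genes were at 0 in every library. For 97.8% of genes (21410) the FPKM corresponded to whole fragments in every library within 0.02 fragments, and limma voom was run on these recovered fragments over 13672 genes. The GC correction removed, per library, a spline of 5 degrees of freedom over GC content from the deviation of each of 13987 genes from its mean. The fit was checked on simulated data. Promoters came from a RefSeq table on GRCm38.p6, and coordinates were not converted between builds. Python 3.11.15, pandas 2.3.3, numpy 2.4.6, scipy 1.17.1 and matplotlib 3.10.9 were used.

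The genes, gene lists and tests were chosen with earlier results of these data known. Values in every library were given for each gene called in any comparison and for Xbp1, Ern1, Ern2, Atf6, Eif2ak3, Atf4, Ddit3, Hspa5, Hsp90b1, Sdf2l1, Derl3 and Creb3l1 whatever their result. Of the other pathway lists the genes called were named, or the 3 of smallest p. PBS and OVA/LPS/GGsTop libraries share replicate numbers, which no label ties to an animal or a day. Deviations from the group means correlated between libraries of the same number (0.367, 0.427 and 0.428). However, PBS 1 with OVA/LPS/GGsTop 3 (0.457) and PBS 2 with OVA/LPS/GGsTop 4 (0.637) correlated more. These values do not show that the numbers pair the libraries, and the replicate block was fitted only as an alternative.

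Alternatives were another pseudocount (0.1), a minimum of 1 FPKM, no filter, rescaling to the same total or median, GC correction, no trend, array weights, 2 groups only, voom, the replicate block, and leaving out each library. At the depth of 14513137 to 18632384 fragments a library, Ern2, Creb3l4 and Derl3 rested on at most 52 fragments in PBS.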

Additional observations from a re-analysis of the deposited data

Results flagged for a closer look

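In the OVA/LPS/Vehicle group, Ern1 was lowest in library 56, at 5.07 FPKM, against 6.55 to 6.85 FPKM in the other 3 libraries, a gap of 0.85 of the group's range. In the same group Hyou1 was highest in library 78, at 21.3 FPKM, against 17.5 to 17.8 FPKM in the others, a gap of 0.919 of the range. Both gaps exceed Dixon's critical value for groups of 4. They were 2 of 80 groups of 4 libraries tested, and chance gives about 1 in 20.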

How the results depend on the processing

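Of 1064 values of single genes under the alternatives, 876 kept direction and side of the threshold, 138 lost the call, 42 gained one and 8 changed sign. The cause was not tested for any of them. Settings that leave out libraries also hold fewer samples. PBS 3 left out together with GC correction, and OVA/LPS/Vehicle 12, 34 and 56 left out, were chosen after seeing the data. The share of all genes called moved with the settings too. Without any 1 library, the share called higher was 8.39% to 21.7% for OVA/LPS/Vehicle against PBS. It was 0.143% to 6.18% for GGsTop against vehicle and 0.15% to 6.82% for GGsTop against PBS. For OVA/LPS/Vehicle against PBS the higher count was 7 with GC correction and PBS 3 left out and 0 without the 3 thyroid-marked libraries, and 13 to 18 without any 1 library. The lower count was 6 with the same total, 1 with the same median, 2 groups only or voom, 5 with array weights, 0 with GC correction, with or without PBS 3, and without the 3 libraries, and 1 to 4 without any 1 library. The median over the 40 genes was 0.04 with the same total, 0.14 with GC correction and PBS 3 left out, 0.33 without the 3 libraries and 0.18 to 0.26 without any 1 library.

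For GGsTop against vehicle the higher count was 2 with a minimum of 1 FPKM, 4 with the same total or 2 groups only, 5 with array weights, 0 with no filter, the same median, GC correction, voom or without the 3 libraries, and 0 to 1 without any 1 library. The lower count was 4 with the same median, 13 with array weights, 7 with 2 groups only, 0 with no filter, the same total, GC correction or without the 3 libraries, and 0 to 2 without any 1 library. The median was 0.08 with the same total, −0.05 with the same median, −0.06 with GC correction or voom, −0.08 with array weights, −0.15 without the 3 libraries and −0.07 to 0.010 without any 1 library. Across rescaling the median of all genes moved from 0.03 to 0.11 with the same total.

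For GGsTop against PBS the higher count was 2 with no filter, 2 groups only or the replicate block, 3 with the same total, 11 with array weights, 1 with GC correction and PBS 3 left out, and 0 to 8 without any 1 library. The replicate block with GC correction gave 5. The median was 0.10 with the same total, 0.14 with the same median, 0.15 with GC correction with or without the block, 0.09 with array weights, 0.21 with voom, 0.13 with GC correction and PBS 3 left out and 0.13 to 0.22 without any 1 library. Signs changed against PBS with vehicle for Creb3l1 (0.01, GC correction and PBS 3 left out), Trib3 (0.00, GC correction) and Canx (−0.01 with GC correction, −0.04 with PBS 3 left out too). They changed for Sdf2l1 (−0.22) and Derl3 (−0.07) with GGsTop against vehicle without the 3 libraries, and for Ssr3 with GGsTop against PBS (−0.02 with GC correction and PBS 3 left out, −0.04 to 0.52 without any 1 library). Genes near or below 1 FPKM, Ern2, Creb3l4 and Derl3 in PBS, are limited by depth.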
